A study of Mus musculus with 14 samples.

Results

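The genes of the tumour necrosis factor (TNF) superfamily and of its receptors were examined in mouse 4T1 breast tumours and in cultured 4T1 cells, with and without knockdown of TAZ. Members were taken by symbol, as every listed row whose name begins with Tnfsf or Tnfrsf and a number, together with Tnf, Lta, Ltb, Ltbr, Cd40, Fas, Fasl, Ngfr and Relt. This gave 30 of the 14523 genes listed in tumours or in cells. Of these, 29 were listed in tumours, 21 in cells and 20 in both. Tnfrsf22 was listed in cells only, and Fasl, Ngfr, Tnfrsf13b, Tnfrsf14, Tnfrsf18, Tnfrsf25, Tnfsf10, Tnfsf12 and Tnfsf14 in tumours only. By role they were 9 ligands, 6 receptors with a death domain, 12 receptors without one and 3 decoy receptors.

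RNA from 4 shC tumours, 4 shTAZ tumours, 3 shC cultures and 3 shTAZ cultures was sequenced in bulk by MARS-seq, which counts the 3′ ends of transcripts. 4T1 is a triple-negative mammary carcinoma line from BALB/c mice. All groups carried a lentiviral, doxycycline-inducible hairpin RNA in puromycin-selected cell pools. The hairpin was scrambled in shC and directed at TAZ, the product of Wwtr1, in shTAZ, with 1 hairpin sequence for each. Tumours grew in the mammary fat pad of BALB/c females, 8 weeks old by the study's methods, from cells given doxycycline for 48 h before injection. The mice ate chow with 625 mg of doxycycline per kg, and tumours were taken 6 weeks after injection. Cultures received doxycycline for 48 h, although the sample labels name no treatment for any group. The control groups therefore also carried a hairpin and doxycycline, and a tumour sample held the cells of the host as well as the carcinoma cells.

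TNF superfamily ligands are trimeric membrane proteins, several of which are shed in soluble form, and they bind receptors with cysteine-rich repeats. Receptors with a death domain can recruit TRADD or FADD and caspase-8, whereas the others bind TRAF adaptors and lead to NF-κB. In tumours the family is best known for TNF itself, for TWEAK and its receptor Fn14 on carcinoma cells, and for the costimulatory receptors GITR, OX40 and CD137 on activated and regulatory T cells.

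The hairpin sequences define the comparison and are shown as the study lists them, 5′ to 3′.
shC: cacacaacatgtaaaccaggga
shTAZ: gacgggtggaggttcacat
target of shTAZ in Wwtr1: atgtgaacctccacccgtc
The 19 bases of shTAZ were the reverse complement of a run in both annotated Wwtr1 transcripts, and in transcripts of no other gene of GENCODE release M21. That run lies in the coding sequence of exon 3, on the minus strand of chromosome 3 of GRCm38, from 57501788 to 57501806. The 22 bases of shC matched no annotated transcript in either direction. Wwtr1 itself was listed in every library. Its level in CPM (counts scaled to a common library size, with TMM) was 27.5 to 59.9 in shC tumours and 13.4 to 25.5 in shTAZ tumours, without overlap. The log2 fold change there was -1.03 with an SE of 0.30, which did not pass over all genes (unadjusted p = 0.0059, adjusted p = 0.923 in edgeR's quasi-likelihood test with Benjamini-Hochberg adjustment). In cells it was 25.4 to 40.6 in shC and 6.02 to 10.5 in shTAZ, also without overlap, and it fell by 2.08 on the log2 scale with an SE of 0.31 (adjusted p = 0.014 in edgeR).

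The total count was 1659736 to 22364483 per tumour and 2243071 to 14815813 per culture. The deepest library was shC tumour 1, and the other tumours held at most 3179767 counts. The 3 counts taken as a floor were thus worth 0.125 to 1.88 CPM in a single tumour library and 0.202 to 1.43 CPM in a single culture. The summed level of 9 carcinoma epithelium markers (all listed) was 3485 to 6758 CPM in tumours and 3909 to 9413 CPM in cells. Macrophage markers (10 of 10 listed) summed to 3828 to 8945 CPM in tumours. The 6 of them listed in cells summed to 18.4 to 50.4 CPM. Libraries stood apart by other tissues. Epidermal markers (11 of 11 listed) summed to 5383 and 4122 CPM in shTAZ tumours 3 and 4, against 30.6 to 188.2 in the other 6 tumours. Markers of urothelium and smooth muscle (10 of 10 listed) summed to 5639 CPM in shC tumour 2, against 24.4 to 58.8 in the others. These 3 tumours were left out in an alternative given beside the results they touch. Nothing in the labels says that tumours or cultures came from separate animals or experiments, so that p values measure the spread between these samples.

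A few receptors held most of the counts of the family. The order below is one of 3′ counts, which were not divided by transcript length because each transcript is read at 1 end. Tnfrsf12a (Fn14, the TWEAK receptor), Ltbr (the lymphotoxin β receptor) and Tnfrsf1a (the death-domain receptor of TNF) took 78.8% of the summed member level in tumours and 95.3% in cells. Only these 3 had a mean above 100 CPM in either setting. In tumours 10 further members had a mean of 10 to 100 CPM and 16 were below 10 CPM. In cells the same classes held 4 and 14 members. The plot of all members by library shows these levels.

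**Figure D1:**
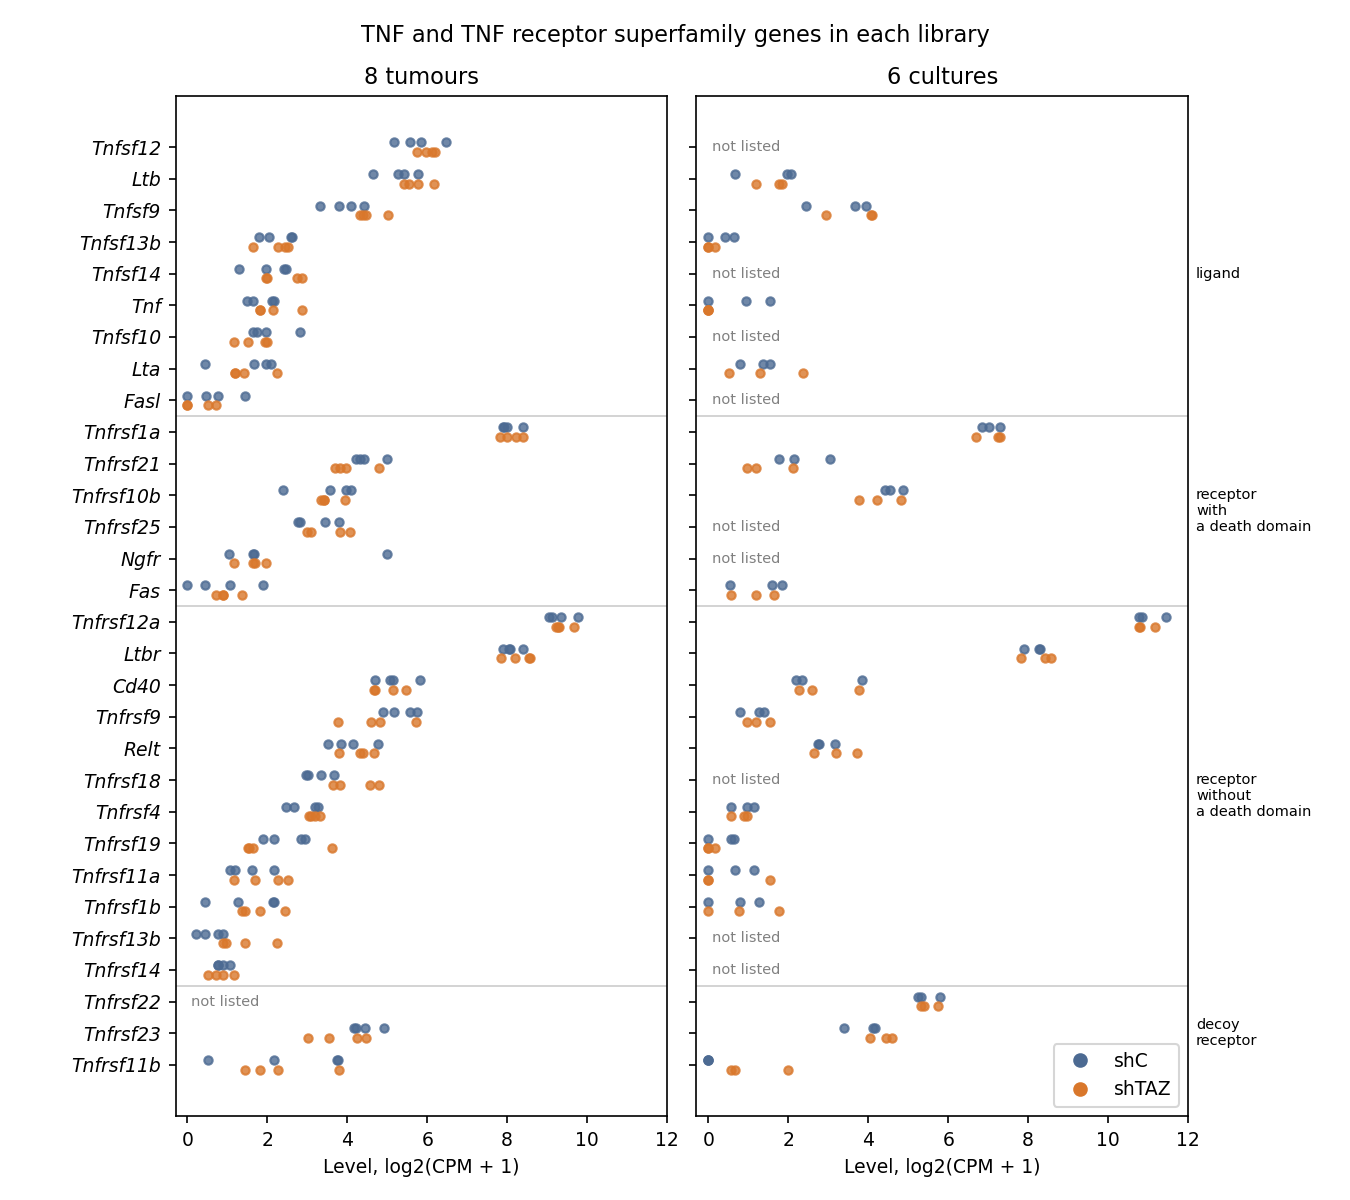
Level of each member in each library, as log2(CPM + 1) on the horizontal axis, in 8 tumours (left) and 6 cultures (right), with shC and shTAZ libraries as points of separate colours and members grouped by role. Tnfrsf12a, Ltbr and Tnfrsf1a sit far to the right in both settings, and most other members are lower in cultures than in tumours or not listed there.

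The first question was whether TAZ knockdown changed these genes in tumours. No member passed an adjusted p of 0.05 in edgeR's quasi-likelihood test, among 17 tested, and neither did any of the 9196 genes tested (0%). DESeq2 called 4 genes and 0 members. The other 12 members fell under the expression filter. At an unadjusted p below 0.05 there were 2 members, Tnfrsf18 and Tnfsf9, and both estimates were positive. Over all genes 366 (3.98%) were at that level, 1.52% with a higher value in shTAZ. Estimates were positive for 11 members and negative for 6, with a median log2 fold change (shTAZ over shC) of 0.18 against -0.0096 over all genes tested. Leaving out 1 tumour at a time moved that median between 0.052 and 0.23. When the 3 tumours with other tissues were left out, the members' median was -0.063, with 8 positive estimates among 20 tested. No member's groups were free of overlap, against 2.39% of all genes.

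Tnfrsf18 encodes GITR, a costimulatory receptor that regulatory T cells carry at high level. It lies on chromosome 4 (156026164 to 156028895, plus strand), and an exon overlaps Gm16008 on the other strand, so that reads of both cannot be told apart if strand was not used. Its level in shC tumours 1 to 4 was 7.15, 9.05, 11.6 and 6.86 CPM. In shTAZ tumours 1 to 4 it was 11.4, 13.0, 26.9 and 22.5 CPM. The highest shC tumour thus lay just above the lowest shTAZ tumour, and the highest values were those of shTAZ tumours 3 and 4. The means were 8.68 ± 2.20 CPM in shC (SD, n = 4) and 18.5 ± 7.48 CPM in shTAZ (SD, n = 4). The log2 fold change was 1.09 with an SE of 0.34 (unadjusted p = 0.0091, adjusted p = 0.923 in edgeR's quasi-likelihood test). The exact two-sided permutation test on log2(CPM + 1) gave p = 0.0571, where the smallest possible p is 0.0286.

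The 2 tumours with the most Tnfrsf18 were also the ones with the epidermal markers. They also had the highest macrophage sums (8285 and 8945 CPM, against 3828 to 7343). The same held for dendritic cell markers (5 of 8 listed, 45.7 and 44.6 CPM, against 18.8 to 37.3). Their carcinoma epithelium sums were the lowest (3526 and 3485 CPM, against 3792 to 6758). With these 2 tumours and shC tumour 2 left out, the log2 fold change of Tnfrsf18 was 0.52 with an SE of 0.41, and it did not pass the threshold. The part of these tissues and cells in the difference was not tested. T cell markers (10 of 12 listed) summed to 38.6, 53.6, 61.6 and 59.6 CPM in shC tumours 1 to 4, and to 68.9, 62.1, 70.1 and 48.8 CPM in shTAZ tumours 1 to 4. These groups overlapped, with a mean log2 difference of 0.23 (exact permutation p = 0.257). None of the listed T cell markers was at 0 in any tumour. Markers of regulatory T cells (4 of 5 listed) summed to 3.85, 4.18, 3.45 and 3.61 CPM in shC tumours 1 to 4, and to 6.64, 4.61, 3.13 and 2.55 CPM in shTAZ tumours 1 to 4. The groups overlapped (mean log2 difference 0.072, exact permutation p = 0.8), and the 2 tumours with the most Tnfrsf18 had the lowest sums. Ikzf2 held 111 counts of this sum over all 8 tumours, against 16 to 20 for each of the other listed markers. Foxp3, which defines these cells, had 18 counts over all 8 tumours. Its level was 1.25 CPM in shTAZ tumour 3 and 0 to 0.722 CPM in the others. The value of shTAZ tumour 3 lay under the floor of 3 counts in that library, 1.88 CPM. In bulk samples fewer cells of a type and less RNA per cell cannot be told apart.

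Tnfrsf4 and Tnfrsf9 are further costimulatory receptors of activated T cells in the family with a test in tumours. Tnfrsf4 (OX40) lies near Tnfrsf18 on chromosome 4, from 156013843 to 156016612. Its level was 5.31, 4.53, 8.19 and 8.67 CPM in shC tumours 1 to 4. In shTAZ tumours 1 to 4 it was 7.27, 7.55, 8.14 and 8.92 CPM, within or just above the shC range. This was a log2 fold change of 0.28 with an SE of 0.31 (adjusted p = 0.932 in edgeR). It did not share the high values of Tnfrsf18 in shTAZ tumours 3 and 4. Tnfrsf25, a receptor with a death domain, was highest in these tumours, at 15.6 and 13.2 CPM. In the others it was at 5.78 to 12.9 CPM.

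Tnfrsf9 (CD137) stood in the opposite direction to its ligand. Its level was 52.1, 28.5, 34.9 and 46.2 CPM in shC tumours 1 to 4. In shTAZ tumours 1 to 4 it was 51.5, 12.6, 23.2 and 27.2 CPM. Thus 3 of 4 shTAZ tumours lay below all shC tumours, and shTAZ tumour 1 lay among the highest. The log2 fold change was -0.49 with an SE of 0.37 (adjusted p = 0.923 in edgeR). It was -0.96 without shTAZ tumour 1 and -0.25 without shTAZ tumour 2, and no tumour left out brought it past the threshold. Its ligand Tnfsf9 was at 12.8, 20.2, 16.0 and 9.03 CPM in shC tumours 1 to 4. In shTAZ tumours 1 to 4 it was at 31.3, 21.0, 18.8 and 19.96 CPM, so that the groups overlapped only through shC tumour 2. The means were 14.5 ± 4.74 CPM in shC (SD, n = 4) and 22.8 ± 5.77 CPM in shTAZ (SD, n = 4). The log2 fold change was 0.67 with an SE of 0.29 (unadjusted p = 0.044, adjusted p = 0.923 in edgeR). The exact permutation test gave p = 0.0857. Without the 3 tumours with other tissues the estimate was 1.04 with an SE of 0.36, which did not pass either. An exon of Tnfsf9 overlaps Gm11110 on the other strand.

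The library codes of the tumours have the prefix FG or FM in the labels, with 2 tumours of each group in each. Within FG the mean log2(CPM + 1) difference between shTAZ and shC was 0.54 for Tnfrsf18, 0.64 for Tnfsf9 and -0.57 for Tnfrsf9. Within FM these were 1.36, 0.64 and -0.66. Each kept its sign in both. With 2 tumours against 2 an exact permutation test cannot pass 0.05, and no test was made within a prefix. For Tnfrsf25 (DR3, a death-domain receptor of lymphocytes) the signs differed, with -0.57 in FG and 1.15 in FM. Among others, they also differed for Cd40 (0.38 in FG and -0.76 in FM) and Tnfrsf1a (-0.24 and 0.35). The same held for Tnfsf12 (-0.16 and 0.65) and Tnfrsf21 (0.061 and -0.90).

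**Figure D2:**
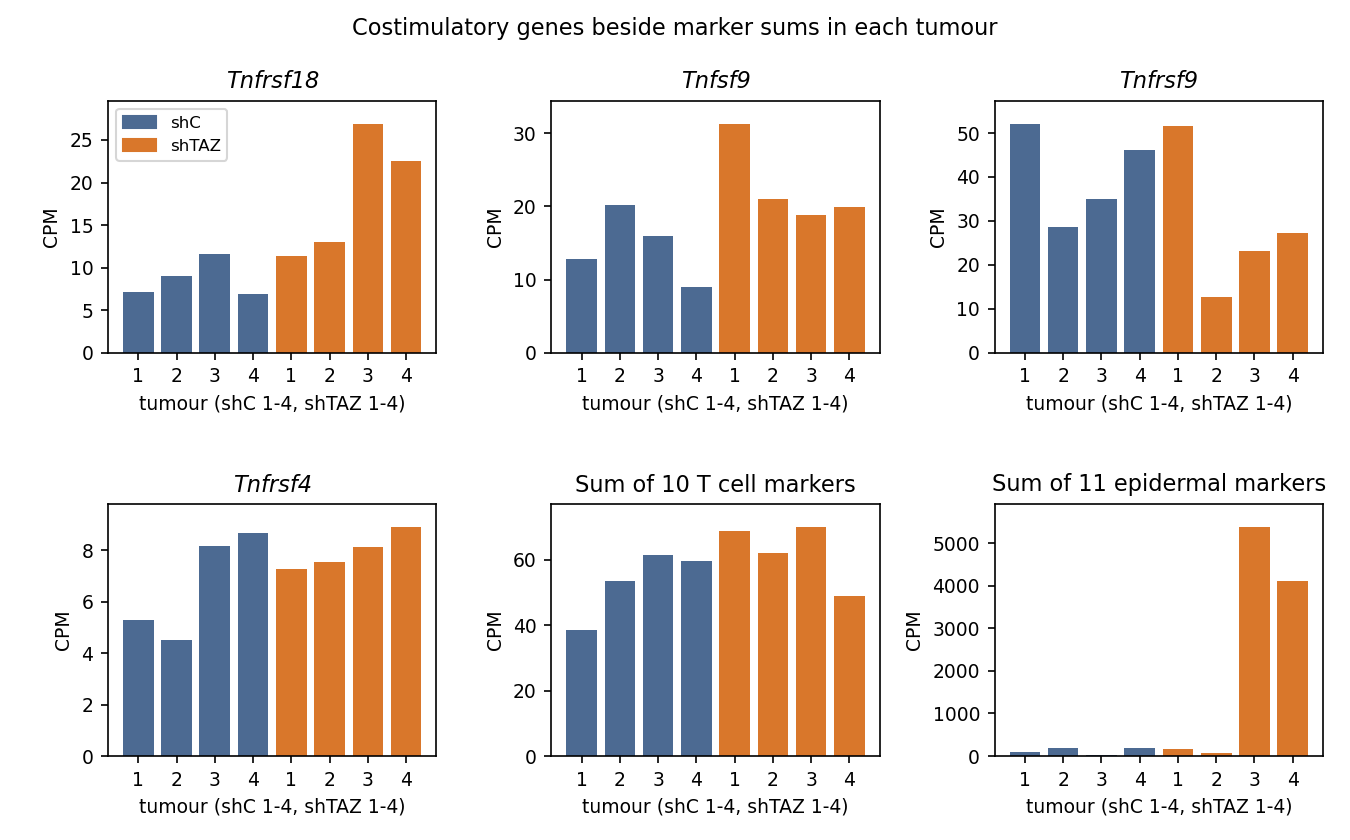
CPM of Tnfrsf18, Tnfsf9, Tnfrsf9 and Tnfrsf4 and the summed CPM of 10 T cell and 11 epidermal markers in each of 8 tumours, as 1 bar per tumour (shC 1 to 4, then shTAZ 1 to 4). The 2 highest bars of Tnfrsf18, 26.9 and 22.5 CPM, are the shTAZ tumours whose epidermal markers reach 5383 and 4122 CPM, while T cell markers range from 38.6 to 70.1 CPM over all tumours.

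The other ligands with high counts showed smaller differences in tumours. Ltb encodes lymphotoxin β, the membrane anchor of lymphotoxin, made mainly by lymphocytes. Its level was 24.0, 53.6, 37.5 and 41.9 CPM in shC tumours 1 to 4, and 42.0, 53.3, 71.3 and 45.4 CPM in shTAZ tumours 1 to 4. The lowest shTAZ tumour lay just above the second highest shC tumour. On the log2 scale the difference was 0.44 with an SE of 0.26 (adjusted p = 0.923 in edgeR). Tnfsf12 (TWEAK) was at 46.9, 87.0, 56.5 and 35.0 CPM in shC tumours 1 to 4, and at 52.8, 61.7, 72.6 and 68.4 CPM in shTAZ tumours 1 to 4. The shTAZ values lay within the shC range, with a log2 fold change of 0.18 and an SE of 0.26 (adjusted p = 0.948 in edgeR). Its exons overlap the readthrough gene Tnfsfm13 on the same strand, so that some reads may be shared.

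None of the 3 abundant receptors passed the test in tumours. Tnfrsf12a was at 553.3, 650.7, 878.6 and 530.99 CPM in shC tumours 1 to 4, and at 630.4, 612.8, 597.1 and 820.5 CPM in shTAZ tumours 1 to 4. For Tnfrsf12a the log2 fold change was 0.027, with a 95% interval of -0.39 to 0.45. Ltbr was at 237.1, 269.8, 337.6 and 263.7 CPM in shC tumours 1 to 4, and at 228.6, 291.1, 376.1 and 371.6 CPM in shTAZ tumours 1 to 4. For Ltbr the log2 fold change was 0.19, with a 95% interval of -0.22 to 0.61. Tnfrsf1a was at 336.0, 240.6, 256.1 and 237.7 CPM in shC tumours 1 to 4, and at 253.9, 226.9, 296.03 and 335.1 CPM in shTAZ tumours 1 to 4. This gave a log2 fold change of 0.053, with a 95% interval of -0.33 to 0.44. These intervals cover both directions, and the groups overlapped in all 3 genes.

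Of the remaining tested members in tumours, Tnfsf13b (BAFF, a B cell survival factor), Tnfrsf10b (the mouse TRAIL receptor) and Tnfrsf21 (DR6) had negative estimates. So had Cd40, the receptor of antigen-presenting cells for CD40 ligand, and Tnfrsf23, a mouse decoy receptor of TRAIL. Relt, Tnfrsf25 and Tnfsf14 (LIGHT, a ligand of Ltbr) had positive ones. Their log2 fold changes lay between -0.57 (Tnfrsf23) and 0.45 (Tnfsf14). An exon of Tnfrsf23 overlaps E230032D23Rik on the other strand. The 12 untested members in tumours included TNF itself, at 1.81 to 6.32 CPM, and its second receptor Tnfrsf1b, at 0.361 to 4.38 CPM. Fas was at 0 to 2.68 CPM and its ligand Fasl at 0 to 1.72 CPM. At these levels, near the floor, no difference was tested in the main fit. With no filter on low counts, 3 of 29 members had an unadjusted p below 0.05 in edgeR, against 687 of 13414 genes. No member was called. Among the untested members the smallest exact permutation p was that of Tnfrsf13b, 0.0571, with 24 counts over all 8 tumours.

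The same hairpins were compared in cells, where no host cells are present. No member passed the threshold among 14 tested, against 3 of 9828 genes (0.0305%), Gapdh, Rpl29 and Wwtr1. With the replicate number as a block in place of the surrogate variable, 6 genes and again 0 members were called. No member had an unadjusted p below 0.05, against 3.9% of all genes. Estimates were positive for 9 members and negative for 5, with a median of 0.049 against -0.0038 over all genes. The other 7 listed members fell under the filter. No tested member had groups without overlap, against 5.57% of all genes.

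Tnfrsf12a was the highest member in cells, at 1846, 1741 and 2817 CPM in shC cultures 1 to 3 and at 2324, 1762 and 1794 CPM in shTAZ cultures 1 to 3. The groups overlapped fully. The log2 fold change was -0.050, with a 95% interval of -0.49 to 0.39. Ltbr was at 310.9, 237.3 and 306.9 CPM in shC cultures and at 380.2, 344.2 and 224.4 CPM in shTAZ cultures 1 to 3, with a log2 fold change of 0.055 and an SE of 0.22. Tnfrsf1a was at 155.2, 128.9 and 113.8 CPM in shC cultures and at 155.7, 151.7 and 102.8 CPM in shTAZ cultures 1 to 3, with a log2 fold change of -0.073 and an SE of 0.20. The spread between cultures of a group was wider than the difference between groups for each.

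The TRAIL receptors were the next highest in cells. Tnfrsf10b, which carries the death domain, was at 28.2, 22.2 and 20.2 CPM in shC cultures 1 to 3. In shTAZ cultures 1 to 3 it was at 27.2, 17.7 and 12.5 CPM. Each shTAZ culture lay below the shC culture of the same number. The estimate was -0.49 on the log2 scale with an SE of 0.30 (unadjusted p = 0.12, adjusted p = 0.9996 in edgeR), the smallest p among the members. The decoys Tnfrsf22 and Tnfrsf23, neighbours on chromosome 7 and close copies of each other, had positive estimates instead. Tnfrsf22 was at 37.0, 39.1 and 54.6 CPM in shC cultures and at 53.0, 40.8 and 38.6 CPM in shTAZ cultures 1 to 3, with a log2 fold change of 0.043 and an SE of 0.26. Tnfrsf23 was at 16.4, 17.0 and 9.57 CPM in shC cultures and at 22.9, 20.6 and 15.5 CPM in shTAZ cultures 1 to 3, with a log2 fold change of 0.34 and an SE of 0.30. Counts of such near copies are uncertain where reads cannot be assigned to 1 of them.

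Tnfsf9, with the positive estimate in tumours, was at 11.7, 14.4 and 4.38 CPM in shC cultures and at 15.8, 16.0 and 6.73 CPM in shTAZ cultures 1 to 3. In cells its log2 fold change was 0.078 with an SE of 0.35. Tnfrsf21 had the most negative estimate in cells, -0.94 with an SE of 0.60, and Lta the most positive, 0.67 with an SE of 0.75. Between cultures of the same number, 2 of 14 tested members were higher in shTAZ in all 3 pairs, Tnfsf9 and Tnfrsf23. Another 2, Tnfrsf10b and Tnfrsf21, were lower in all 3. With only 3 pairs such agreement often arises by chance, and its share over all genes was not counted. With the replicate block the log2 fold changes of Tnfsf9, Tnfrsf23, Tnfrsf10b and Tnfrsf21 were 0.40, 0.49, -0.36 and -1.25. Their SEs were 0.35, 0.30, 0.29 and 0.63. None of the 4 had an unadjusted p below 0.05 in that fit. Members near 0 fell under the filter. Tnf had 13 and 10 counts in shC cultures 1 and 2 and 0 in the other 4 cultures. Tnfrsf11b (osteoprotegerin, the soluble decoy of RANK ligand) was at 0 in all 3 shC cultures and had 1, 7 and 5 counts in shTAZ cultures 1 to 3. These counts were singled out after they were seen. The exact permutation test in cells gave p = 0.4 for Tnf and p = 0.1 for Tnfrsf11b, the smallest that 3 against 3 allows. With no filter on low counts both had an unadjusted p below 0.05 (0.018 and 0.0070), and neither was called (adjusted p = 1 and 0.984 in edgeR).

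**Figure D3:**
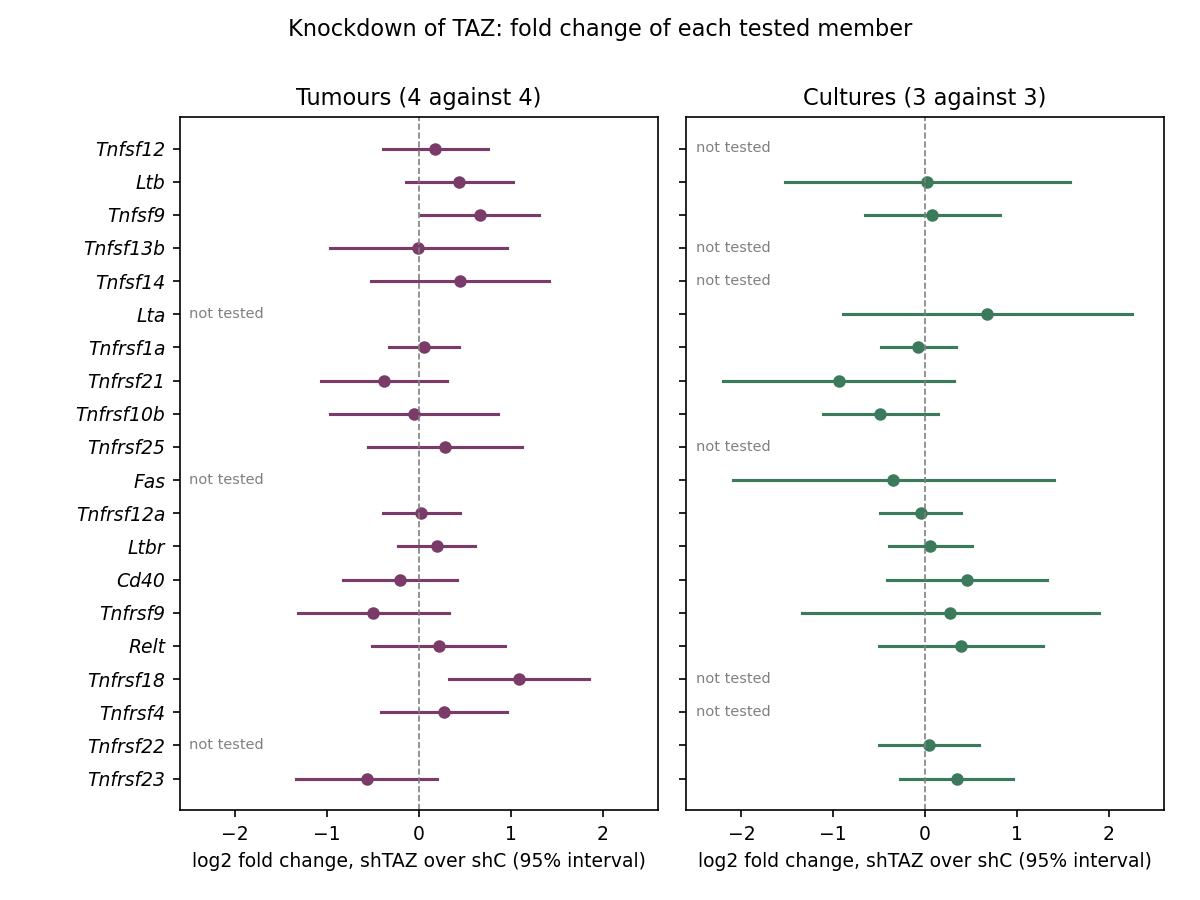
Log2 fold change of shTAZ over shC for each tested member, with its 95% interval as a line, in tumours (4 against 4) and in cultures (3 against 3). In tumours the intervals of Tnfrsf18 and Tnfsf9 lie above 0 before adjustment and all others cross 0, and in cultures every interval crosses 0.

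Whether knockdown acted differently in tumours and in cells was asked of all 14 libraries together, as an interaction in edgeR's quasi-likelihood test of 9194 shared genes. No gene and no member was called (0%), and DESeq2 called 0 genes as well. At an unadjusted p below 0.05 there were 2 of 17 members, against 227 genes (2.47%). They were Tnf (unadjusted p = 0.0155) and Tnfrsf11b (unadjusted p = 0.0060), with adjusted p = 0.9998 for both in edgeR. For each of them 1 group of cultures was at 0 throughout, so that no size is given. Tnfrsf18 could not enter, since it was not listed in cells.

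Between tumours and cells most tested members differed. Tumours and cultures were tabulated separately and share no library code prefix, so that a batch and the setting cannot be told apart. The CPM of single libraries below are scaled within each table. Fold changes, and the floor for cultures at 0, were scaled over all 14 libraries together. Of 17 members tested, 13 passed an adjusted p of 0.05 in edgeR's quasi-likelihood test (51.1% of all genes), 11 higher in tumours (25.7% of all genes) and 2 lower (25.4% of all genes). The members' median log2 fold change, tumours over cells, was 2.16, against -0.027 over all genes. The groups were free of overlap for 9 members, against 23.7% of all genes. Of the 17 members, 6 passed the filter through their level in tumours alone (Tnf, Tnfrsf11b, Tnfrsf19, Tnfrsf1b, Tnfrsf4 and Tnfsf13b), which favours a higher value there, and their calls carry no weight of their own. Of these, 5 were called higher, while Tnfrsf1b had a log2 fold change of 1.43 with an SE of 0.65 and did not pass. Among the 11 that also passed in cells, 6 were higher and 2 lower in tumours. The share over all genes under that restriction was not counted. With at least 10 counts required in every library, 7 members remained, of which 2 were higher and 2 lower, with a median of 0.046. Over all genes that setting called 3289 of 6567, 1594 higher and 1695 lower, so that the members were near the share of all genes.

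The costimulatory receptor Tnfrsf9 and the lymphotoxin ligand Ltb were higher in tumours. Tnfrsf9 was at 12.6 to 52.1 CPM in tumours (median 31.7) and at 0.742 to 1.89 CPM in cells (median 1.33). Tumours were higher by a log2 fold change of 4.60 with an SE of 0.36 (adjusted p = 2.5e-08 in edgeR). Ltb was at 24.0 to 71.3 CPM in tumours (median 43.7) and at 0.593 to 3.17 CPM in cells (median 2.49), with a log2 fold change of 4.27 and an SE of 0.33 (adjusted p = 2.6e-08 in edgeR). All 8 tumours lay above all 6 cultures for both genes. Tnfrsf4 passed the filter through the tumours alone, so that its values are a description. It was at 4.53 to 8.92 CPM in tumours and at 0.4655 to 1.19 CPM in cells, with a log2 fold change of 3.05 and an SE of 0.34.

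The other members with the largest differences had few counts in cells and, like Tnfrsf4, passed the filter through the tumours alone, so that their values are given as a description. Tnfrsf19 (TROY) was at 2.68, 6.62, 3.45 and 6.14 CPM in shC tumours 1 to 4, and at 1.90, 11.3, 1.88 and 2.12 CPM in shTAZ tumours 1 to 4. It had 14 counts over the 6 cultures, none of them in 3 cultures, and without shC tumour 2 it no longer passed the filter. Tnfsf13b (BAFF, of myeloid cells) was at 2.47, 3.13, 5.17 and 5.06 CPM in shC tumours 1 to 4, and at 4.74, 2.10, 4.38 and 3.82 CPM in shTAZ tumours 1 to 4. It had 12 counts over the cultures, and all 8 tumours lay above all 6 cultures for both genes. The fitted log2 fold changes were 4.49 (SE 0.72) for Tnfrsf19 and 4.36 (SE 0.59) for Tnfsf13b.

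For Tnfrsf11b and Tnf a group of cultures was at 0, and the fitted log2 fold changes of 5.33 and 4.56 depend on the prior count and are no bounds. Tnfrsf11b was at 12.6, 3.48, 0.431 and 12.3 CPM in shC tumours 1 to 4, and at 13.0, 3.77, 2.50 and 1.70 CPM in shTAZ tumours 1 to 4. Its tumours varied widely within both groups, and shC tumour 3 and shTAZ tumours 3 and 4 lay within the range of the cultures (0 to 2.94 CPM). The floor and folds that follow use levels scaled over all 14 libraries together, which differ slightly from those printed. With 3 counts taken as the floor over the 3 shC cultures together (0.0987 CPM), the mean of shC tumours was at least 74.8-fold higher than that of shC cultures. The mean of shTAZ tumours was 3.83-fold that of shTAZ cultures. Tnf was at 3.35, 2.09, 3.45 and 1.81 CPM in shC tumours 1 to 4, and at 6.32, 2.52, 2.50 and 3.40 CPM in shTAZ tumours 1 to 4. By the same floor its mean was at least 15.5-fold higher in shTAZ tumours than in shTAZ cultures, and it was 2.72-fold higher in shC tumours than in shC cultures. In shC libraries alone Tnf did not pass, and without shC tumour 1, 2 or 3 or shTAZ tumour 1 it fell under the filter and lost its call. For each gene the log2 bound of 1 hairpin and the log2 fold of the other averaged to 4.08 (Tnfrsf11b) and 2.70 (Tnf). These means are not bounds as a whole. With both genes placed there the members' median stayed at 2.16.

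Receptors that the carcinoma cells express in culture went both ways. Tnfrsf12a was at 530.99 to 878.6 CPM in tumours (median 621.6) and at 1741 to 2817 CPM in cells (median 1820), so that every culture lay above every tumour. Its log2 fold change was -1.68 with an SE of 0.16 (adjusted p = 3.1e-07 in edgeR). Tnfrsf10b was also lower in tumours, at 4.23, 14.6, 16.0 and 10.8 CPM in shC tumours 1 to 4, and at 9.17, 9.65, 14.4 and 9.77 CPM in shTAZ tumours 1 to 4, against 12.5 to 28.2 CPM in cells (median 21.2). The groups overlapped. On the log2 scale this was -1.003 with an SE of 0.28 (adjusted p = 0.0072 in edgeR, and 0.0044 to 0.0225 with 1 library left out). In shC libraries alone its adjusted p was 0.0583, and in shTAZ libraries alone 0.0721. Tnfrsf1a was higher in tumours, at 226.9 to 335.994 CPM against 102.8 to 155.7 CPM in cells, with a log2 fold change of 0.98 and an SE of 0.15 (adjusted p = 5.9e-05 in edgeR). Ltbr had a log2 fold change of -0.063, with a 95% interval of -0.40 to 0.27. Tnfrsf23 and Tnfsf9 did not pass the threshold either, and Tnfrsf21, Cd40 and Relt were higher in tumours by log2 fold changes of 2.58, 2.16 and 1.21. Tnfrsf21 was at 11.9 to 30.7 CPM in tumours (median 18.4) and at 0.955 to 7.28 CPM in cells (median 2.84), and Cd40 at 24.4 to 55.3 CPM (median 33.6) and 3.56 to 13.3 CPM (median 4.57). Neither gene's tumours and cultures overlapped.

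The summed levels of host cell markers moved with this contrast. T cell markers summed to 38.6 to 70.1 CPM in tumours. Of 12, only 2 were listed in cells, and they summed to 1.43 to 8.74 CPM. Macrophage markers differed as given above, and of 9 fibroblast markers 8 were listed in tumours, with a sum of 1451 to 4286 CPM, and 6 in cells, with a sum of 2.63 to 10.5 CPM. Their part in the members' differences was not tested.

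**Figure D4:**
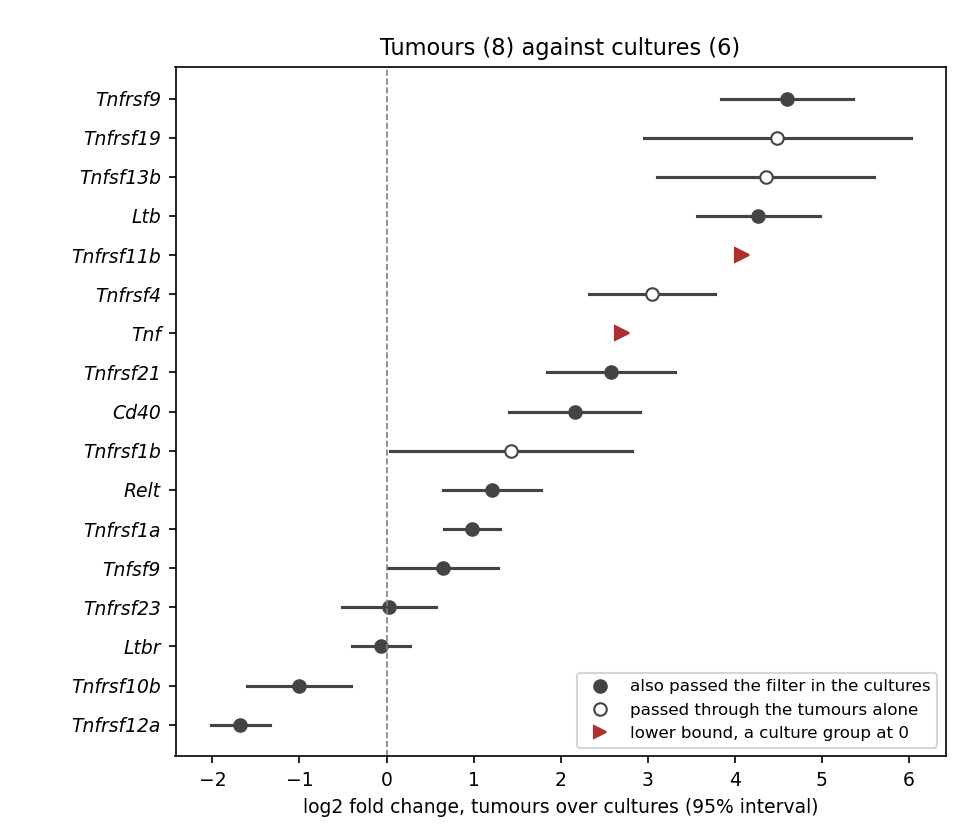
Log2 fold change of 8 tumours over 6 cultures for 17 members, with its 95% interval as a line. Filled points also passed the filter in cultures, and open points passed it through the tumours alone. Triangles, labelled as lower bounds, stand for the genes at 0 in 1 culture group. Each is the mean of the log2 bound for that hairpin and the log2 fold of the other. As a whole it is not a bound. Tnfrsf9 and Ltb lie at 4.60 and 4.27, and Tnfrsf12a and Tnfrsf10b at -1.68 and -1.003.

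Promoters of 3 members are printed, since among the 11 that also passed the filter in cells Tnfrsf9 and Ltb had the highest log2 fold changes and Tnfrsf12a the lowest. RefSeq gives windows of 300 bases (250 before to 50 after a start, GRCm38.p6) for 24 of the 30 members, 28 windows in all. They were read on both strands for a TEAD motif, CATTCC, and for a loose κB motif, GGG and CC with any 5 bases between them. Capitals mark κB matches, which can overlap one another. Tnfrsf9 has a further window, at its first start (chr4:150919905-150920204), which holds 0 κB matches and is not printed.
Tnfrsf12a (chr17:23677400-23677699, minus strand): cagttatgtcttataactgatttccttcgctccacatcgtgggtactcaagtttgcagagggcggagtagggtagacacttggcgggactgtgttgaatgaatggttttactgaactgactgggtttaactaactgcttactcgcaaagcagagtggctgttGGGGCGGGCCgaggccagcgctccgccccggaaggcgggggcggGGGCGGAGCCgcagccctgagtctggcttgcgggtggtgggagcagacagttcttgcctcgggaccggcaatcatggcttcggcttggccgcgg
Tnfrsf9 (chr4:150927749-150928048, plus strand, the second of its starts): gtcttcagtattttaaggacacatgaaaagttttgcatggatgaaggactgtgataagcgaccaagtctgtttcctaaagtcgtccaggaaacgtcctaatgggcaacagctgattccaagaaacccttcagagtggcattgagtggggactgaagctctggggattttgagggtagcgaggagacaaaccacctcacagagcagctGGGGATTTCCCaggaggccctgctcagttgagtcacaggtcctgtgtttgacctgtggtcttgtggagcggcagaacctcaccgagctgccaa
Ltb (chr17:35194257-35194556, plus strand): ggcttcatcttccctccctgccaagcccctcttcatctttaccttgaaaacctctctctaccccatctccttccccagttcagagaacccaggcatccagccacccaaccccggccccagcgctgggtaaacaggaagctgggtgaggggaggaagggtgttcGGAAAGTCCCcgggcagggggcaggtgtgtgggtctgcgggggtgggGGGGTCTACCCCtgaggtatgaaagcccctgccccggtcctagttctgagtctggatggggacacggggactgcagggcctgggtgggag
The κB motif was found in 19 of the 28 member windows (67.9%), against 50.8% of all 32851 promoter windows. The TEAD motif, bound by the partners of TAZ, was found in 2 (7.14%), those of Tnfrsf11a and Tnfrsf1b, against 14.7% of all. No window printed here holds it. Both matches in the Tnfrsf12a window also hold GGGCGG, the letters of a GC box. A match is a description of letters and not a measured site, and no test was made on these shares.

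The genes that carry the signal of these receptors were read from lists. Of adaptor and death signalling genes, 22 of 24 could be tested in tumours and 21 in cells. None was called for knockdown in either by edgeR. The same held for 25 and 26 tested genes of NF-κB signalling, 19 and 18 genes induced by TNF, and 6 and 5 genes of ligand shedding. The median log2 fold change of these lists lay between -0.12 and 0.062 in tumours and between -0.088 and 0.089 in cells. The only unadjusted p below 0.05 in tumours was that of Mmp9, a protease gene that TNF induces, with a log2 fold change of -1.08 and an SE of 0.47 (unadjusted p = 0.0405, adjusted p = 0.923 in edgeR). In cells it was that of Traf1, an adaptor of CD137 and TNFR2 that TNF also induces, with a log2 fold change of 1.49 and an SE of 0.66 (unadjusted p = 0.0351, adjusted p = 0.9996 in edgeR).

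Between tumours and cells the first 3 lists held calls in both directions, and the shedding list in 1. The share of tested genes called was 28.6% of adaptor genes, 34.6% of NF-κB genes, 55.6% of TNF-induced genes and 60% of shedding genes, against 51.1% of all genes. Of 21 adaptor genes tested, 2 were higher in tumours and 4 lower. Traf1 was higher by a log2 fold change of 4.14 with an SE of 0.30, and Diablo, whose product frees caspases from their inhibitors, by 0.39. Siva1, Traf3, Bid and Mlkl were lower, by log2 fold changes of -1.16, -0.60, -0.56 and -0.52. Of 26 NF-κB genes, 6 were higher, from Bcl3 at 2.20 and Tnip2 at 1.48 to Rbck1, Ikbkb, Map3k14 and Ikbke at 0.47 to 0.61. Lower were Nfkb2 at -1.01, the inhibitor Tnfaip3 at -0.85 and Map3k7 at -0.81. Of 18 TNF-induced genes, 6 were higher and 4 lower. The higher ones were Cxcl2 (4.16), Traf1, Cxcl10 (2.53), Icam1 (2.08), Tnfaip8 (1.96) and Ccl2 (1.54), chemokine, adhesion and survival genes. Of these, Tnfaip8 passed the filter through the tumours alone, so that its call carries no weight of its own. It is counted among the 6 and in the share of 55.6%. The lower ones were Ptgs2 (-3.16), Lif (-1.25), Tnfaip3 and Tnfaip2 (-0.42). In the shedding list Adam17, the TNF convertase, its partner Rhbdf2 and Furin were higher, by 0.91, 0.70 and 0.78, and 0 of 5 passed as lower. The list medians were -0.044, -0.0051, 0.017 and 0.70, against -0.027 over all genes.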

How the data were processed

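Bulk MARS-seq of 8 tumours and 6 cultures was used. The processing notes of the authors name cutadapt, HTSeq and the mm10 build, and the study's methods name STAR as the aligner. The deposited raw counts per gene are whole numbers, listed for 13414 genes in tumours and 11793 in cells, each with a total of at least 6. The deposited tables also hold a signal per library (counts divided by the authors' DESeq2 size factors), the authors' log2 values (regularized logarithms and fold changes) and the authors' p-values, none of which were used. Whether counting used strand or collapsed molecular identifiers is not given in the sources used here. Groups follow the sample titles. Members and lists were chosen with earlier results of these data known.

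Genes passing edgeR 4.0.16's filterByExpr were normalized by TMM and compared with its quasi-likelihood F test in R 4.3.3, with 1 surrogate variable (sva 3.50.0) for cells and Benjamini-Hochberg adjustment over all genes at 0.05. An SE was obtained from the estimate and its F value. CPM use TMM-scaled totals. The tumour and cell tables were joined on 10684 shared symbols for the contrast of tumours with cells and for the interaction. Single values were tested by exact permutation on log2(CPM + 1). The code was tested on simulated data.

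Values in every sample are given for members with an unadjusted p below 0.05 or groups without overlap between hairpins, the 6 highest by mean CPM in tumours or cells, Tnfrsf9, Tnfrsf18 and Tnfrsf4, and the 5 largest called differences in either direction between tumours and cells, where cultures with few counts are given as sums or ranges. List genes are named when past the threshold, otherwise up to 3 with the smallest p. Same-numbered cultures share a code prefix in the labels and deviated together (0.359, 0.199 and 0.643 as correlations of deviations across genes, and genes are not replicates), so that the numbers were taken to pair the cultures. Between cultures of different numbers the correlations ran from -0.559 to 0.258. The highest of these, of shTAZ culture 2 with shC culture 1, exceeded the 0.199 of number 2, so that the correlations do not separate numbers 1 and 2. The culture pairs entered only the replicate block and the counts of pairs. The main fit of cells, the permutation tests and the fits that join tumours and cells did not use them. Tumour numbers were not taken to pair. No pair of libraries of a group agreed within sampling noise. Alternatives were RLE size factors, DESeq2 1.42.0, other filters, the replicate block, a term for the code prefix, a surrogate variable, 1 hairpin alone and leaving out each library. Promoters came from RefSeq (GRCm38.p6) and gene positions from GENCODE release M21 (GRCm38), where all 30 members were found.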

Additional observations from a re-analysis of the deposited data

Results flagged for a closer look

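Of 58 sets of 4 tumours (29 members in shC and in shTAZ), 5 held a tumour far from the other 3 for its gene, where chance gives about 1 in 20. Ngfr, the p75 neurotrophin receptor, was at 30.7 CPM in shC tumour 4 and at 1.05 to 2.16 CPM in the other shC tumours. Tnfrsf19 was at 11.3 CPM in shTAZ tumour 2, against 1.88 to 2.12 CPM in the other shTAZ tumours. Tnfrsf12a was at 820.5 CPM in shTAZ tumour 4, against 597.1 to 630.4 CPM. Tnfrsf10b was at 14.4 CPM in shTAZ tumour 3, against 9.17 to 9.77 CPM, and Lta was at 3.76 CPM in the same tumour, against 1.26 to 1.68 CPM. These 2 rest on few counts in the shallowest library, which held 1659736 counts in total. In shTAZ tumours 1 to 4 Tnfrsf10b had 29, 23, 23 and 23 counts, and Lta 4, 4, 6 and 3. No member's change differed between tumours and cells by the interaction test of edgeR.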

How the results depend on the processing

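No member was called for knockdown, in tumours or in cells, nor for the interaction, under any alternative run. In tumours DESeq2 called 4 genes. The members' median log2 fold change there was 0.023 with no filter on low counts and -0.063 without the 3 tumours with other tissues, a choice made after seeing the data. Abundant receptors changed sign around 0 in tumours. Tnfrsf12a was at -0.023 with 1 surrogate variable, and without the 3 tumours Tnfrsf12a, Ltbr and Tnfrsf1a were at -0.087, -0.12 and -0.22. With 1 tumour left out, Tnfrsf12a ranged from -0.10 to 0.21 and Tnfrsf1a from -0.061 to 0.19. In cells the genes called numbered 5 with DESeq2, 6 with the replicate block, 0 with no surrogate variable, 0 with one from raw counts (added after seeing the data) and 0 to 4 with 1 culture left out. Tnfrsf1a was at 0.029 with the block and 0.041 with no surrogate variable, and Ltbr at -0.10 with the one from raw counts. With 1 culture left out, Tnfrsf12a ranged from -0.23 to 0.28, Ltbr from -0.14 to 0.39, Tnfrsf1a from -0.16 to 0.033, Tnfrsf22 from -0.13 to 0.38 and the members' median from -0.067 to 0.32. With at least 10 counts in every library, 5 members were higher in cells with shTAZ. The causes were not tested. The replicate block called 0 genes in tumours and changed no other call. Replicate numbers were not taken to pair the tumours (correlations of the same numbers 0.221, 0.120, 0.333 and -0.012).

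Between tumours and cells the members' median was 1.78 with no filter, 0.046 with at least 10 counts in every library, 1.42 in shC libraries alone, 1.04 in shTAZ libraries alone and 1.72 to 2.37 with 1 library left out. Of members, 4 of 7 were called with at least 10 counts, against 3289 of 6567 genes. In shTAZ libraries alone 8 of 12 were called, against 2748 of 8460 genes, from fewer samples. With 1 library left out 11 to 15 were called, against 4364 to 4822 genes. Higher in tumours by estimate were 4 of 7 with at least 10 counts and 8 of 12 in shTAZ libraries alone. Members under the filter had too few counts to be tested, and the shallowest tumours limit those below 10 CPM.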
